A study of Mus musculus with 4 samples.

Results

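The genes described here are 40 interferon-induced effectors of the mouse that lie outside the IFIT, OAS, GTPase, RNA sensor, IRF and STAT families. They were chosen by name, with earlier results of these data known. Every probe set whose single symbol in the platform annotation was one of these names was taken. That gave 66 probe sets for 36 of the 40 genes. The other 4, Isg15, Ifi44, Ifi205 and Phf11b, had no probe set of their own, so no value is given for them. RNA was measured on 4 Affymetrix Mouse430_2 arrays, on which each probe set is a group of short oligonucleotides aimed at a transcript. All 4 arrays came from MyD88 -/- macrophages, grown from bone marrow for 6 days with recombinant human M-CSF. The first group was treated with 100 ug/ml zymosan for 120 minutes (2 arrays), and the second was left unstimulated and collected at 0 minutes (2 arrays). Zymosan is a particle made from yeast cell walls and sensed by the receptors TLR2 and Dectin-1. MyD88 is the adaptor of most Toll-like receptors. The comparison sets transcripts after 2 h of zymosan against those at 0 minutes, in cells without that adaptor. No unstimulated array was collected at 120 minutes, so the effects of zymosan and of time in culture cannot be told apart. Wild-type macrophages were not analysed here, and the deletion could not be checked against them. The titles of the unstimulated arrays also carry the letters LPS and PIC, and the labels state that these cells received no stimulus.

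Type I interferons bind the IFNAR1 and IFNAR2 receptor, which activates the kinases JAK1 and TYK2 and assembles the factor ISGF3, whose DNA-binding subunit is IRF9. ISGF3 binds interferon-stimulated response elements near its target genes. The products of these targets block viral entry, nucleotide supply, translation or release, and some feed back on the pathway. Macrophages make many of them without added interferon, through a low constitutive signal.

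The unstimulated arrays were hybridized and scanned 16 days apart, and both zymosan arrays on a single day 137 days after the second of them, under another operator and project, per the scanner settings files. No day held both groups, so the effect of zymosan and that of the day, operator or project cannot be told apart. Whether the 2 arrays of a group stand for separate mice or cultures is not stated in the labels, and the p-values therefore reflect only the spread among these arrays, which may be technical. Macrophage markers were present on all arrays, with all 7 listed genes kept by the filter. Their summed level (sum of unlogged values) was 38227 to 38241 on zymosan arrays and 41876 to 44374 on unstimulated arrays. Of the 7, 3 fell, against 5.64% of all kept genes.

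Interferon-induced effector genes were lower after zymosan almost throughout. Of the 36 measured genes, 28 fell, 0 rose and 8 did not pass limma's test (Benjamini-Hochberg adjusted p under 0.05 over all kept probe sets). That is 77.8% of them, where 5.64% of all 13222 kept genes fell. Because the list was chosen with earlier results known, this contrast describes these arrays and is not an independent test. At an unadjusted p under 0.05 limma gave 32 lower and 0 higher. The share of all kept genes at an unadjusted p is not given, here or beside later counts of that kind. Such counts therefore have no background to be read against. Of the 28, 21 fell at least 2-fold, as did 1.57% of all kept genes. The median difference, zymosan minus unstimulated, was -1.08 on the log2 scale over the 36 genes and 0.00 over all kept genes. Each gene stands in these counts by its probe set of highest mean over the 4 arrays, and none of these 36 probe sets passed the filter on low values through the unstimulated arrays alone. In bulk RNA, fewer cells of a type and less RNA per cell cannot be told apart.

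**Figure D1:**
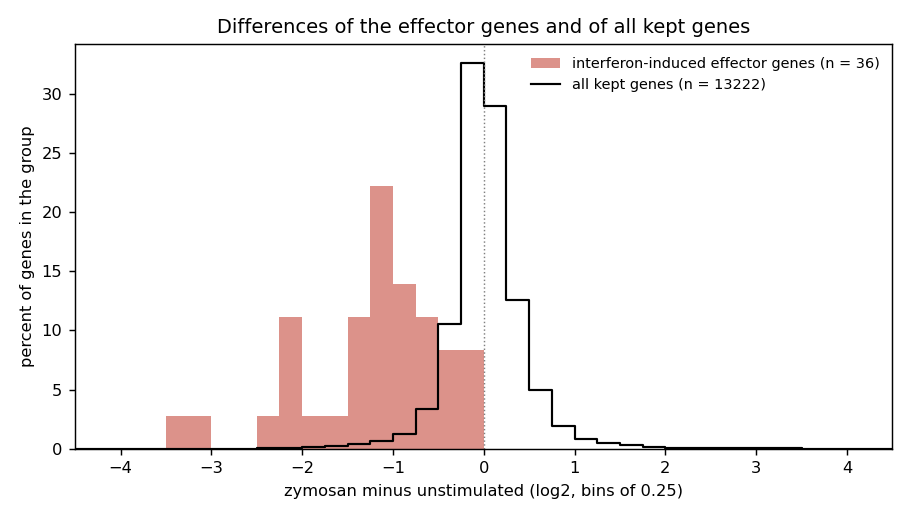
Share of genes (percent, vertical axis) by difference between zymosan and unstimulated arrays (log2, horizontal axis, bins of 0.25), for the 36 measured effector genes (filled bars) and all 13222 kept genes (line). All 36 effector genes lie below 0, while the kept genes are centred on 0.

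Both zymosan arrays lay below both unstimulated arrays for 34 of the 36 genes, against 28.2% of all kept genes. The exceptions were Ifi204 and Tor3a. The unstimulated arrays also differed from each other in these genes. Array 1 was higher than array 2 for 31 of the 36, against 57.5% of all kept genes, and the median gap was 0.35 over the effector genes and 0.04 over all kept genes (log2, unstimulated 1 minus unstimulated 2, 1 array each, no test). The median SD over the effector genes was 0.08 in the zymosan pair and 0.26 in the unstimulated pair, and over all kept genes 0.07 in the zymosan pair and 0.10 in the unstimulated pair. Set against each unstimulated array on its own, the zymosan mean was lower by a median of 1.26 than array 1 (-1.26) and of 0.90 than array 2 (-0.90), with all 36 genes below array 1 and 35 below array 2. For 31 genes the zymosan mean lay below the lower unstimulated array by more than the gap within the unstimulated pair, against 22.1% of all kept genes. The 5 that did not were Herc6, Trim30a, Ifi203, Ifi204 and Tor3a. The 31 include Daxx, Nmi and Ifi30, which did not pass limma's test. The unstimulated pair shared operator and project, so its gap does not cover the change of operator and project to the zymosan arrays.

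The count of calls moved most when a zymosan array was left out. Without zymosan replicate 1, 8 of the 28 stayed called (0.659% of all kept genes): Ifi27l2a, Rtp4, Slfn5, Sp100, Ly6e, Xaf1, Lgals3bp and Epsti1. Without zymosan replicate 2, 5 stayed called (0.276% of all kept genes): Ifi27l2a, Rtp4, Slfn5, Sp100 and Ube2l6. The percents in brackets are the shares of all kept genes called lower in the same fit. In these fits the lone zymosan array is assumed to vary like the unstimulated pair. The median difference was -1.10 and -1.05 in these fits. Without unstimulated replicate 1 or 2 the calls moved less, and the median difference was -0.90 and -1.26. There the lone unstimulated array is assumed to vary like the same-day zymosan pair, which was the tighter pair. The smaller move in calls therefore does not show that the choice of unstimulated array matters little. A fit with day as a random block was added after the data had been seen. In it 18 stayed called, against 1.67% of all kept genes. As no day held both groups, that fit cannot separate zymosan from day, here or where its calls are given below.

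**Figure D2:**
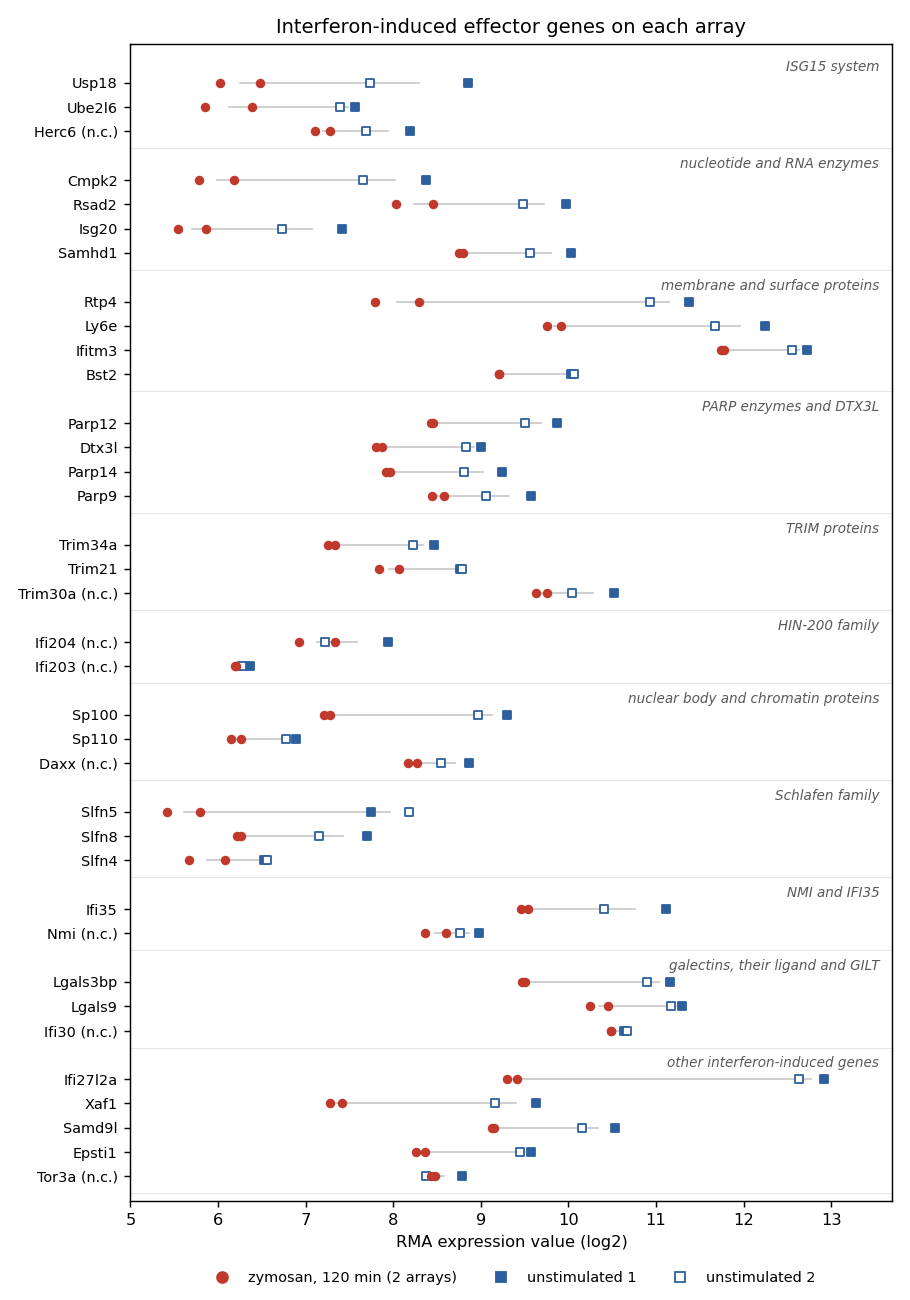
RMA expression values (log2, horizontal axis) of the probe set that stands for each of the 36 measured genes, grouped by role, with zymosan arrays as red circles, unstimulated array 1 as filled and array 2 as open blue squares, and a grey line joining the group means; n.c. marks genes not past the test. The circles lie left of both squares in 34 rows, and levels of different rows cannot be compared.

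The promoters of the effector genes were searched for the letters of the response element that ISGF3 binds. RefSeq windows on GRCm38.p6, from 250 bases before to 50 after an annotated start, were at hand for 32 of the 40 genes, not for Ifi204, Ifi27l2a, Ly6e, Parp14, Parp9, Rtp4, Tor3a and Usp18. The core searched was GAAA, any 2 bases and GAAA again, on both strands, which reads TTTC, any 2 bases and TTTC on the other strand. It stood in a window of 13 of the 32 genes, or 40.6%, against 3.99% of 27025 genes with a window. It stood in 8 of 22 members that fell (36.4%) and in 2 of 6 that did not pass, Ifi203 and Trim30a (33.3%). Of the 4 members with no probe set of their own, 3 held it (Isg15, Ifi205 and Phf11b). The core of the gamma-activated site, TTCNNNGAA, which reads the same on both strands, stood in 5 of the 32 (15.6%), against 9.55% of all genes with a window, and overlapped a response element core in Bst2 and Ifitm3. The genes were listed as interferon-induced, so their share against all genes reflects the list and is no result of these arrays. A match in letters is a description and not a binding site, and a window without a match says only that these letters are not in it.

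The stretches upstream of the start site that hold the core are printed for the members that fell, for Ifi203 and Trim30a, which did not pass, and for Isg15, the gene that names the ISG15 system and has no probe set of its own. They are given 5′ to 3′ on the strand of the gene, with the cores in capitals.
Bst2 (chr8:71537572-71537617, minus strand): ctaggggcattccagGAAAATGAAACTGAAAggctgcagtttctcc
Slfn5 (chr11:82951932-82951971, plus strand): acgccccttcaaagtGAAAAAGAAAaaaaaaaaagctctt
Slfn8 (chr11:83020834-83020873, minus strand): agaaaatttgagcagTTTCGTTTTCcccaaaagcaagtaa
Rsad2 (chr12:26456548-26456587, minus strand): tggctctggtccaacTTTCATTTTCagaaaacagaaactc
Lgals9 (chr11:78984955-78984994, minus strand): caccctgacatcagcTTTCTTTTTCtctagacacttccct
Ifi203 (chr1:173942503-173942542, minus strand): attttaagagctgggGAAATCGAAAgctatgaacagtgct
Trim30a (chr7:104465205-104465244, minus strand): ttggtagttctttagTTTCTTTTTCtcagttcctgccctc
Isg15 (chr4:156200860-156200911, minus strand): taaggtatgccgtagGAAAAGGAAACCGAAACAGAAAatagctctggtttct

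In Bst2 a pair of cores overlapped, and in Isg15 the cores ran on through a stretch of 3 overlapping matches. Rsad2, Slfn8, Lgals9 and Trim30a held the core in the opposite orientation. Rsad2 and Slfn5 had the largest falls among members that fell and have the core upstream of the start, and their upstream windows of 250 bases are given whole, again with the core in capitals. The core begins 120 bases before the start in Rsad2 and 155 before it in Slfn5. Cmpk2, the neighbour of Rsad2, Xaf1 and Sp100 fell, with log2 differences of -1.89 to -2.05, and this core is not in their windows.
Rsad2 upstream window (chr12:26456453-26456702, minus strand): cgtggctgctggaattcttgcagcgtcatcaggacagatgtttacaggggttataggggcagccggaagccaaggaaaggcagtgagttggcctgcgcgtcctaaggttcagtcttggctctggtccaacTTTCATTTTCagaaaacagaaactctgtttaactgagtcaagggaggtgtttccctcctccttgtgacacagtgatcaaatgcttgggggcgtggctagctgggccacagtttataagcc
Slfn5 upstream window (chr11:82951852-82952101, plus strand): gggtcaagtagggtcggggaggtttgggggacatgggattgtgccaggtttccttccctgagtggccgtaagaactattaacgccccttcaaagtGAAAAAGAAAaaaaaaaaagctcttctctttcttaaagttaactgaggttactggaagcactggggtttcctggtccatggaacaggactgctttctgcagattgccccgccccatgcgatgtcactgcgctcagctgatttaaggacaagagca

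Of the 3 measured genes of the ISG15 system, 2 fell. ISG15 is a ubiquitin-like protein joined to other proteins, and Ube2l6 encodes the conjugating enzyme of that reaction. Ube2l6 was at 5.85 and 6.39 on zymosan arrays, against 7.57 and 7.40 on unstimulated arrays. It fell 2.57-fold (log2 difference -1.36, SE 0.20, limma adjusted p = 0.0121). Usp18, the protease that removes ISG15 and also restrains signalling at IFNAR2, was at 6.48 and 6.02 on zymosan arrays and at 8.85 and 7.73 on unstimulated arrays. It fell by 2.04 on the log2 scale (SE 0.37, limma adjusted p = 0.0219). The unstimulated arrays stood 1.12 apart in Usp18, the only gene of the 36 with a gap of 2-fold there, while 0.272% of all kept genes had one in that direction. Herc6, the main ISG15 ligase of the mouse, gave split readings over 4 probe sets. Its probe set of highest mean was at 7.28 and 7.11 on zymosan arrays and at 8.19 and 7.69 on unstimulated arrays, a difference of -0.75 (SE 0.19) that narrowly missed the threshold (limma adjusted p = 0.0502). A second Herc6 probe set was at 5.06 and 5.19 on zymosan arrays and 6.82 and 6.47 on unstimulated arrays, and fell by 1.52 (limma adjusted p = 0.00513). The next was at 5.23 and 4.82 on zymosan arrays and 6.10 and 5.77 on unstimulated arrays, and fell by 0.92 (limma adjusted p = 0.0296). The last was at 7.31 and 7.01 on zymosan arrays and 7.82 and 7.44 on unstimulated arrays and did not pass (difference -0.47, limma adjusted p = 0.135). At each of the 4 both zymosan arrays lay below both unstimulated arrays. Without zymosan replicate 1 limma called 0 of the 3 genes, where 3 had an unadjusted p under 0.05, and without zymosan replicate 2 it called Ube2l6. With day as a random block it called 0, where 3 had an unadjusted p under 0.05.

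The enzymes that act on nucleotides and RNA fell together, 4 of 4 and each at least 2-fold. Cmpk2, a mitochondrial nucleotide kinase, was at 6.19 and 5.79 on zymosan arrays, against 8.38 and 7.66 on unstimulated arrays. It fell 4.09-fold (SE 0.26 on the log2 scale, limma adjusted p = 0.00946), and its other probe set fell 3.72-fold. Rsad2 encodes viperin, which turns CTP into a chain terminator of viral RNA synthesis, and is the neighbour of Cmpk2 on chromosome 12 in the RefSeq gene order. Rsad2, with the core 120 bases before its start, was at 8.45 and 8.03 on zymosan arrays and 9.97 and 9.48 on unstimulated arrays. It fell 2.80-fold (SE 0.22, limma adjusted p = 0.0124), and the other probe sets fell 2.23-fold and 2.15-fold. Isg20, a 3′ exonuclease of RNA, was at 5.86 and 5.55 on zymosan arrays against 7.42 and 6.73 on unstimulated arrays, 2.59-fold lower (SE 0.25, limma adjusted p = 0.021). Samhd1 encodes a hydrolase that lowers the dNTP pool. It was at 8.79 and 8.76 on zymosan arrays and 10.03 and 9.56 on unstimulated arrays, and fell 2.03-fold (SE 0.17, limma adjusted p = 0.0178). The groups did not overlap for any of these 4 genes. Of the 5 kept probe sets of Samhd1, 4 fell, with differences of -0.62 to -1.02, while one at 5.77 and 5.52 on zymosan arrays and 5.65 and 5.07 on unstimulated arrays overlapped between groups (difference 0.28, limma adjusted p = 0.427). When either zymosan array was left out, limma called 0 of the 4 genes, all 4 of which had an unadjusted p under 0.05. With day as a random block it called Rsad2 and Cmpk2.

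All 4 genes of membrane and surface proteins fell, by unlike amounts. Rtp4, which encodes a chaperone that carries receptors to the cell surface, was at 8.30 and 7.79 on zymosan arrays, against 11.38 and 10.93 on unstimulated arrays. It fell 8.62-fold (log2 difference -3.11, SE 0.22, limma adjusted p = 0.00259) and had the third lowest difference of all kept genes (rank 3). A second Rtp4 probe set was at 4.22 and 4.01 on zymosan arrays, below the filter's level (the 40th percentile of each array, 4.36 to 4.39), and at 5.77 and 4.83 on unstimulated arrays. It passed the filter through the unstimulated arrays alone, so it is given as a description, at least 1.92-fold lower on zymosan arrays against that level, with no test. Ly6e encodes a GPI-anchored surface protein that restricts fusion of some viruses. It was at 9.91 and 9.76 on zymosan arrays and 12.24 and 11.67 on unstimulated arrays, 4.35-fold lower (SE 0.20, limma adjusted p = 0.00474). Its other probe set went the other way without passing the test, at 6.57 and 6.84 on zymosan arrays against 6.50 and 6.16 on unstimulated arrays (difference 0.37, SE 0.17, limma adjusted p = 0.189).

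Bst2 and Ifitm3 fell by less and were close within each group. Bst2 encodes tetherin, which holds budding virus at the cell surface, and has overlapping cores upstream of its start. It was at 9.21 and 9.20 on zymosan arrays and 10.03 and 10.06 on unstimulated arrays, and fell 1.79-fold (SE 0.10, limma adjusted p = 0.00773). Its unstimulated arrays differed by -0.03, and the distance to each was alike (-0.83 and -0.86). Ifitm3, which blocks virus entry at endosomal membranes, was at 11.75 and 11.78 on zymosan arrays, against 12.72 and 12.55 on unstimulated arrays, 1.83-fold lower (SE 0.11, limma adjusted p = 0.00932). Of the 4 genes, limma called Rtp4 and Ly6e without zymosan replicate 1 and Rtp4 alone without zymosan replicate 2, and all 4 with day as a random block.

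**Figure D3:**
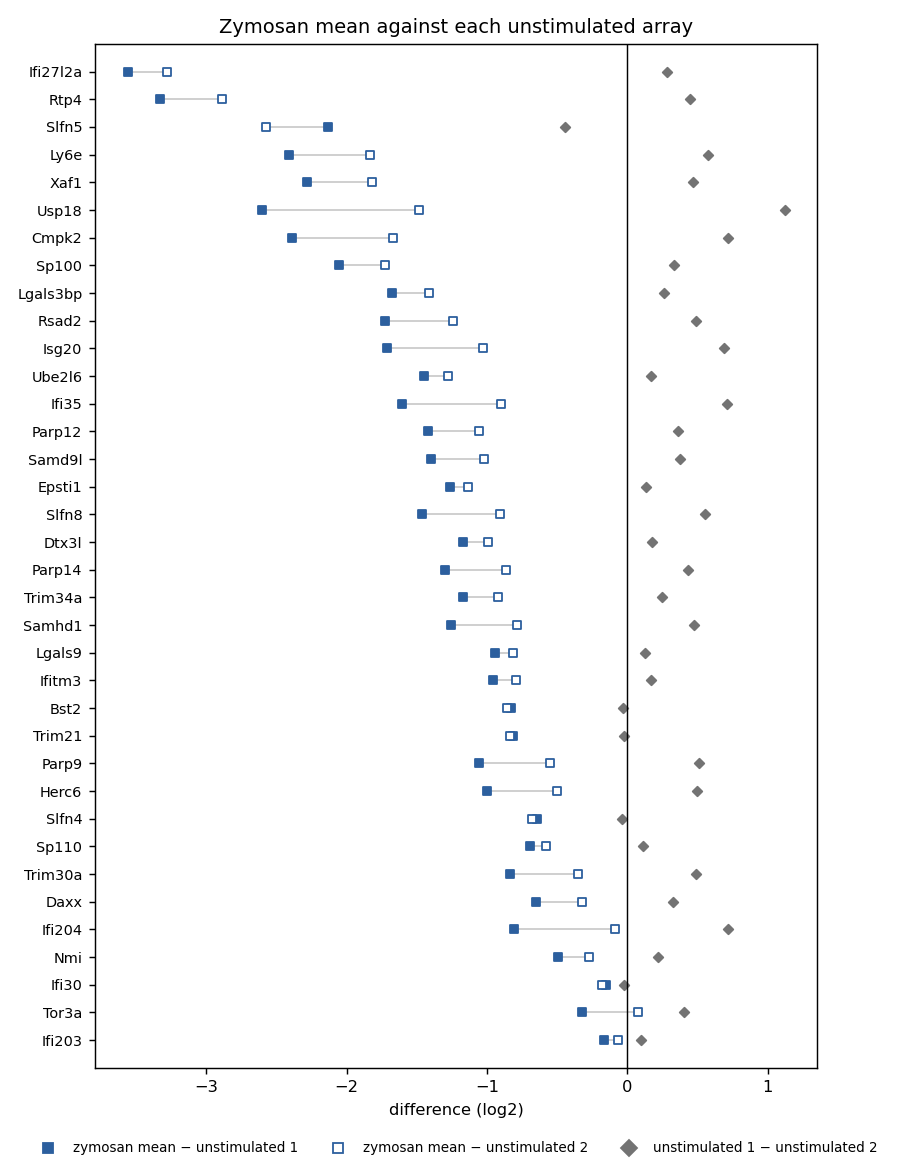
Zymosan mean minus unstimulated array 1 (filled squares) and minus array 2 (open squares), with the gap of the unstimulated pair (grey diamonds), on the log2 scale for the 36 measured genes, ordered by mean difference. Of the 36 genes, 35 lie below 0 against both arrays, and 31 diamonds lie right of 0.

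PARP9 and DTX3L form a complex that joins ubiquitin to its targets, and PARP12 and PARP14 transfer single ADP-ribose units. All 4 genes fell, with log2 differences of -0.80 to -1.24. Parp12 was at 8.46 and 8.44 on zymosan arrays and 9.87 and 9.50 on unstimulated arrays, 2.36-fold lower (SE 0.15, limma adjusted p = 0.00763). Dtx3l lies between Parp14 and Parp9 on chromosome 16. Dtx3l was at 7.87 and 7.80 on zymosan arrays and 9.01 and 8.83 on unstimulated arrays, 2.12-fold lower (limma adjusted p = 0.00588). Parp14 was at 7.97 and 7.91 on zymosan arrays and 9.24 and 8.81 on unstimulated arrays, also 2.12-fold lower (limma adjusted p = 0.0137). In all 4 genes both zymosan arrays lay below both unstimulated arrays. Parp9 was at 8.58 and 8.45 on zymosan arrays and 9.57 and 9.06 on unstimulated arrays, 1.75-fold lower (limma adjusted p = 0.0415). Both probe sets of Dtx3l were called, while another of Parp14 differed by -0.03 (limma adjusted p = 0.905), at 5.70 and 5.55 on zymosan arrays and 5.74 and 5.56 on unstimulated arrays. Leaving out either zymosan array left 0 of the 4 called by limma, all 4 with an unadjusted p under 0.05. With day as a random block 3 were called, all but Parp9.

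Of the 3 TRIM genes, 2 fell and Trim30a gave split readings. Trim21, which encodes a cytosolic antibody receptor with ubiquitin ligase activity, was at 7.83 and 8.06 on zymosan arrays, against 8.76 and 8.79 on unstimulated arrays. It fell 1.77-fold (limma adjusted p = 0.0131), and its other probe set 2.23-fold. Trim34a was at 7.34 and 7.25 on zymosan arrays and 8.47 and 8.22 on unstimulated arrays, and fell 2.07-fold (limma adjusted p = 0.008) at its one kept probe set. Trim30a was at 9.75 and 9.63 on zymosan arrays and 10.52 and 10.04 on unstimulated arrays at the probe set of highest mean, a difference of -0.59 (SE 0.18) that did not pass (limma adjusted p = 0.0823). Its other probe set was at 8.0 and 7.89 on zymosan arrays and 9.29 and 9.03 on unstimulated arrays, and fell 2.32-fold (limma adjusted p = 0.00595). Limma called 0 of the 3 genes without zymosan replicate 1 and 0 without zymosan replicate 2, where 3 and 2 had an unadjusted p under 0.05. It called all 3 without unstimulated replicate 2, and Trim34a with day as a random block.

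Genes of nuclear body and chromatin proteins differed in size of change. Sp100 encodes a core protein of PML nuclear bodies. It was at 7.28 and 7.20 on zymosan arrays, against 9.30 and 8.97 on unstimulated arrays, and fell 3.70-fold (SE 0.14, limma adjusted p = 0.00293). Its other probe set also fell (log2 difference -1.59, limma adjusted p = 0.00389). Its relative Sp110 was at 6.26 and 6.15 on zymosan arrays and 6.89 and 6.78 on unstimulated arrays, 1.55-fold lower (limma adjusted p = 0.0199). A second Sp110 probe set lay near the filter's level, at 4.65 and 4.31 on zymosan arrays and 4.33 and 4.81 on unstimulated arrays, and overlapped between groups (difference -0.09, limma adjusted p = 0.804). Daxx, which encodes a chaperone of histone H3.3, was at 8.27 and 8.17 on zymosan arrays and 8.86 and 8.54 on unstimulated arrays, a difference of -0.49 (SE 0.14, limma adjusted p = 0.0748). It was called without unstimulated replicate 2. Sp100 was called without either zymosan array and with day as a random block, while Sp110 was called in none of these 3 fits.

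All 3 Schlafen genes fell. Schlafen proteins act in myeloid and lymphoid growth and in the restriction of viral translation. Slfn5, with the core 155 bases before its start, was at 5.80 and 5.42 on zymosan arrays and 7.74 and 8.19 on unstimulated arrays. It fell 5.11-fold (SE 0.20, limma adjusted p = 0.00386), and here unstimulated array 2 was the higher one. Another Slfn5 probe set was at 4.00 and 3.84 on zymosan arrays, below the filter's level, and at 6.53 and 6.07 on unstimulated arrays. It too passed the filter through the unstimulated arrays alone and was at least 3.83-fold lower on zymosan arrays, with no test given. The remaining one was at 4.38 and 4.09 on zymosan arrays and 4.29 and 4.41 on unstimulated arrays, with overlapping groups (difference -0.12, limma adjusted p = 0.612). Slfn8 was at 6.27 and 6.22 on zymosan arrays, against 7.71 and 7.15 on unstimulated arrays, and fell 2.27-fold (limma adjusted p = 0.0167). Slfn4 was at 6.08 and 5.67 on zymosan arrays, against 6.52 and 6.56 on unstimulated arrays, and fell 1.58-fold (limma adjusted p = 0.0461). Slfn5 was called without either zymosan array, while Slfn8 was called in neither of those fits and Slfn4 in none of the 4 fits that left out an array. With day as a random block Slfn5 and Slfn8 stayed called and Slfn4 did not (limma adjusted p = 0.193).

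**Figure D4:**
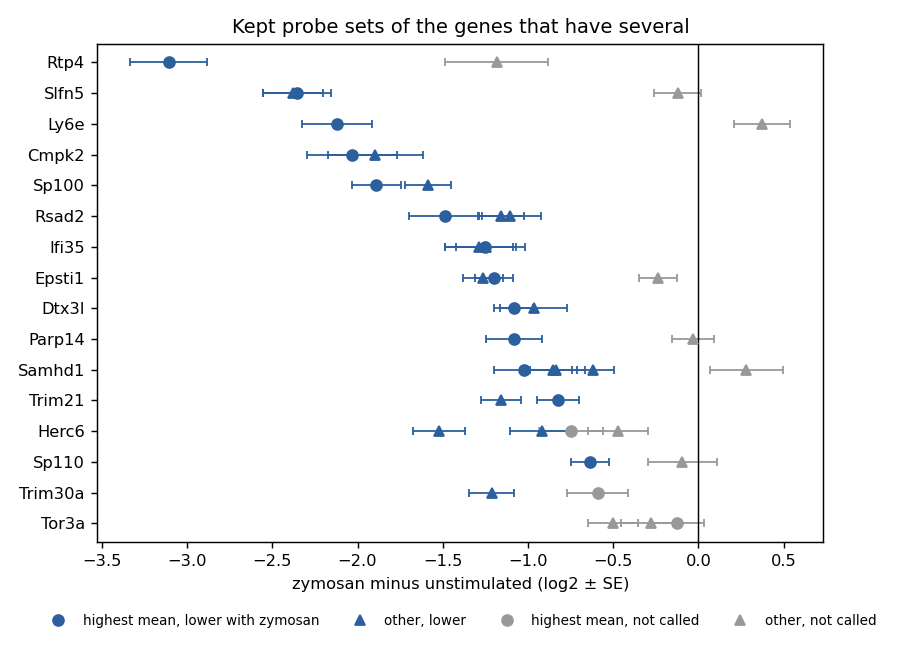
Difference between zymosan and unstimulated arrays (log2, bars show limma's SE) for each kept probe set of the 16 genes with more than 1 kept probe set; circles mark the probe set of highest mean, triangles the others, blue those lower by limma's test and grey those not called. In 6 genes every kept probe set fell, in 9 genes some did, and in Tor3a none did. A probe set of Slfn5 and another of Rtp4 passed the filter through the unstimulated arrays alone, so their colours are not a test. Rtp4 is among the 9 only through that probe set.

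NMI and IFI35 bind each other in the cytoplasm. Ifi35 fell at each of its 3 probe sets, with log2 differences of -1.25 to -1.29, and at that of highest mean was at 9.54 and 9.46 on zymosan arrays and 11.11 and 10.40 on unstimulated arrays (limma adjusted p = 0.0231). Its unstimulated arrays stood 0.71 apart. Nmi had a difference of -0.39 (SE 0.14, limma adjusted p = 0.125), with 8.36 and 8.60 on zymosan arrays and 8.98 and 8.76 on unstimulated arrays. Limma called 0 of both genes without zymosan replicate 1, where 1 had an unadjusted p under 0.05, and 0 without zymosan replicate 2, where 2 did. With day as a random block it called 0, where 1 had an unadjusted p under 0.05.

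Of the 2 measured HIN-200 genes, whose family holds sensors of DNA, limma called 0, and 0 had an unadjusted p under 0.05. Ifi204 was at 6.93 and 7.34 on zymosan arrays, against 7.94 and 7.22 on unstimulated arrays, so the groups overlapped. Its difference was -0.45 (SE 0.27, limma adjusted p = 0.31), with -0.81 against unstimulated array 1 alone and -0.09 against array 2 alone. Ifi203 was at 6.20 and 6.20 on zymosan arrays and 6.37 and 6.27 on unstimulated arrays, a difference of -0.12 (SE 0.11, limma adjusted p = 0.505). Further probe sets carry the names of these genes together with other symbols, and were not used.

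Of the genes for galectin-9, a galectin ligand and GILT, 2 of 3 fell. Lgals3bp encodes a secreted glycoprotein that binds galectins. It was at 9.47 and 9.50 on zymosan arrays, against 11.16 and 10.90 on unstimulated arrays, and fell 2.92-fold (SE 0.13, limma adjusted p = 0.00362). Lgals9, which encodes galectin-9, was at 10.46 and 10.24 on zymosan arrays and 11.30 and 11.17 on unstimulated arrays, 1.84-fold lower (limma adjusted p = 0.0118). Ifi30 encodes GILT, a lysosomal thiol reductase that prepares antigens for presentation. It was at 10.49 and 10.48 on zymosan arrays and 10.64 and 10.67 on unstimulated arrays, a difference of -0.17 (SE 0.10, limma adjusted p = 0.325) in which all 4 arrays lay close together. Lgals3bp was called without zymosan replicate 1 and with day as a random block but not without zymosan replicate 2, and Lgals9 in none of these 3 fits.

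The remaining genes held the lowest difference of the group and one of the smallest. Ifi27l2a, a small hydrophobic protein gene strongly induced by interferon, was at 9.42 and 9.30 on zymosan arrays and 12.91 and 12.63 on unstimulated arrays. It was 10.7-fold lower (log2 difference -3.42, SE 0.14, limma adjusted p = 0.000838), the lowest difference of all kept genes (rank 1), and lay 3.28 below the lower unstimulated array (-3.28). Xaf1 encodes a partner of the apoptosis inhibitor XIAP. It was at 7.41 and 7.28 on zymosan arrays against 9.63 and 9.16 on unstimulated arrays, 4.14-fold lower (SE 0.18, limma adjusted p = 0.00389). Samd9l, a cytosolic restriction factor of poxviruses, was at 9.15 and 9.12 on zymosan arrays and 10.53 and 10.15 on unstimulated arrays, 2.31-fold lower (limma adjusted p = 0.00854). Epsti1 was at 8.36 and 8.26 on zymosan arrays and 9.58 and 9.44 on unstimulated arrays, 2.30-fold lower (limma adjusted p = 0.00453). In these 4 genes the groups did not overlap. A further Epsti1 probe set fell 2.40-fold, and another, at 4.82 and 4.98 on zymosan arrays and 5.17 and 5.11 on unstimulated arrays, did not pass (difference -0.24, limma adjusted p = 0.22).

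Tor3a, which encodes a torsin ATPase of the endoplasmic reticulum, passed at none of its 3 probe sets. At that of highest mean it was at 8.43 and 8.48 on zymosan arrays, between the 8.78 and 8.38 of the unstimulated arrays (difference -0.12, SE 0.16, limma adjusted p = 0.652). The other probe sets differed by -0.28 and -0.50 (limma adjusted p = 0.342 and 0.0775). Of the genes in this group, Ifi27l2a was called without either zymosan array. Xaf1 and Epsti1 were called without zymosan replicate 1 only, and Samd9l in neither case, while all 4 were called with day as a random block.

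Probe sets of the same gene did not always move alike. Of the 62 kept probe sets, 44 fell and 0 rose, with 51 lower and 0 higher at an unadjusted p under 0.05. In all 7.45% of kept probe sets on the array fell. The 44 include 1 of Slfn5 that passed the filter through the unstimulated arrays alone and so had to differ. The 51 include that probe set and 1 of Rtp4 that passed in the same way. The 4 that were not kept reached the filter's level on 1 array at most. That of Trim34a was at 3.47 and 3.60 on zymosan arrays and 3.73 and 3.98 on unstimulated arrays, and that of Sp110 at 3.75 and 3.91 on zymosan arrays and 3.91 and 3.88 on unstimulated arrays. That of Xaf1 was at 4.16 and 4.24 on zymosan arrays and 4.65 and 4.06 on unstimulated arrays, and that of Epsti1 at 3.99 and 3.97 on zymosan arrays and 4.21 and 3.97 on unstimulated arrays. The groups overlapped in all but that of Trim34a. When the filter was dropped, 42 of all 66 were called lower, 0 higher, and 0 were higher at an unadjusted p under 0.05. Of 16 genes with several kept probe sets, 6 fell at every one (Rsad2, Cmpk2, Dtx3l, Trim21, Sp100 and Ifi35), 9 at some and Tor3a at none. Rtp4 is among the 9 only through the probe set that passed the filter on the unstimulated arrays alone. Which transcript ends the single probe sets reach is not given in the sources used here.

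Other genes of the interferon pathway did not share the uniform direction of the effectors. Of the listed genes, 21 were kept, and by the probe set of highest mean 5 of these were called lower, 6 higher and 10 in neither direction, where 5.64% of all kept genes fell and 8.36% rose. The 5 include Socs1, which passed the filter through the unstimulated arrays alone and so had to differ. The ligand genes Ifnb1, Ifna2, Ifna4 and Ifng lay below the filter's level, with Ifnb1 at 3.85 and 3.97 on zymosan arrays and 4.28 and 3.86 on unstimulated arrays. Ticam2 had no probe set of its own. Of the receptor genes, Ifngr2 fell by 0.80 at its probe set of highest mean (limma adjusted p = 0.0215). Ifnar1 differed by -0.26 at its probe set of highest mean (limma adjusted p = 0.182). Another Ifnar1 probe set went the other way without passing (difference 0.64, limma adjusted p = 0.115). It was at 6.59 and 6.66 on zymosan arrays and 5.66 and 6.32 on unstimulated arrays. The called probe sets of Ifnar2 were opposed. Those that fell differed by -0.59 (limma adjusted p = 0.0195) and -0.78 (limma adjusted p = 0.0123), while another, at 8.48 and 8.45 on zymosan arrays and 8.02 and 8.05 on unstimulated arrays, rose by 0.44 (limma adjusted p = 0.0426). Of the kinase genes, Jak2 rose at both of its probe sets, 1.72-fold at that of highest mean (limma adjusted p = 0.011). Jak1 was also opposed. It rose 1.81-fold at its probe set of highest mean (limma adjusted p = 0.0116), but another, at 6.55 and 5.84 on zymosan arrays and 7.44 and 7.17 on unstimulated arrays, fell 2.16-fold (limma adjusted p = 0.0377), so neither Jak1 nor Ifnar2 has a single direction here. Tyk2 differed by 0.01 (limma adjusted p = 0.982).

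Irf9 was at 7.35 and 7.35 on zymosan arrays and 8.86 and 8.63 on unstimulated arrays (difference -1.40, limma adjusted p = 0.00392). Irf7, which amplifies interferon production and is itself induced by interferon, was at 5.95 and 5.77 on zymosan arrays and 9.24 and 8.09 on unstimulated arrays (difference -2.81, limma adjusted p = 0.00911). Stat2 had a difference of -0.88 that did not pass (limma adjusted p = 0.076). In the other direction, Irf1, an activator also induced by NF-kB, was at 10.70 and 10.48 on zymosan arrays and 8.61 and 8.45 on unstimulated arrays (difference 2.06, limma adjusted p = 0.00206). Among feedback genes, Socs3 rose 3.88-fold (limma adjusted p = 0.00293) and Ptpn2 1.61-fold at its probe set of highest mean (limma adjusted p = 0.0373). Socs1 was at 4.28 and 4.32 on zymosan arrays, below the filter's level, and at 4.86 and 4.97 on unstimulated arrays, at least 1.47-fold lower on zymosan arrays, with no test given. Ikbke, a kinase that activates IRF3, rose 1.67-fold (limma adjusted p = 0.0139), and Tbk1, Irf3, Ticam1, Sting1, Mavs and Ifngr1 did not pass. Pias1 did not pass at its probe set of highest mean (difference -0.07, limma adjusted p = 0.71), while another of its probe sets rose 1.59-fold (limma adjusted p = 0.0163). Without zymosan replicate 1 limma called 1 pathway gene lower and 2 higher, without zymosan replicate 2 it called 0 lower and 2 higher, and with day as a random block 2 lower and 3 higher. At an unadjusted p under 0.05, 6 were lower and 6 higher in each of the fits without a zymosan array.

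Markers of some other cell types moved with the groups. Over all kept genes 8.36% rose and 5.64% fell. All 5 granulocyte precursor markers were called higher, with a summed level of 568 to 613 on zymosan arrays and 153 to 158 on unstimulated arrays. One of the 5, Ms4a3, passed the filter through the zymosan arrays alone and so had to differ. Of 5 neutrophil markers 4 rose, with 3953 to 4087 on zymosan arrays and 875 to 972 on unstimulated arrays. Of 5 markers of plasmacytoid dendritic cells, cells that make type I interferon, 3 were kept and Tcf4 fell. Their summed level was 223 to 225 on zymosan arrays and 304 to 354 on unstimulated arrays. Tcf4 differed by -0.75 at its probe set of highest mean, while some of its other probe sets did not pass. Siglech (difference -0.07) and Ly6d (difference -0.03) did not pass and overlapped between groups. Ccr9 and Spib were not kept by the filter. Of the B cell markers 2 of 4 were kept and Cd79b fell (51.3 to 54.0 on zymosan arrays, 65.9 to 67.0 on unstimulated arrays). Of the T and NK cell markers 1 of 4 was kept (57.4 to 64.6 on zymosan arrays, 65.5 to 74.1 on unstimulated arrays). Of the fibroblast markers 2 of 4 were kept (57.0 to 65.8 on zymosan arrays, 64.8 to 73.2 on unstimulated arrays). Limma called 0 of the T and NK cell and fibroblast markers in either direction. The part of these cells in the lower effector transcripts was not tested.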

How the data were processed

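Gene expression was measured on 4 arrays, 2 from zymosan-treated and 2 from unstimulated MyD88 -/- macrophages. The authors deposited a log2 value for each probe set on each array, made with RMA per the submitters' processing notes. The sources used here do not give its version or which arrays entered the normalization. RMA corrects background, equalizes array distributions and summarizes probes; it also returns values for transcripts that are absent. The scanner settings files gave chip type, day, operator and project. All 4 value columns were used.

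Of 45037 probe sets (64 controls set aside), 34945 had 1 symbol in the platform annotation, 932 several and 9160 none there. Of those with several, 11 name a member and were not used. Probe sets at or above the 40th percentile in at least 2 arrays were kept, 27571 in all, for 13222 genes. Differences, zymosan minus unstimulated, were fitted with lmFit and eBayes in limma 3.58.1 (R 4.3.3), 2-sided, with p-values adjusted by Benjamini-Hochberg over the kept probe sets and a threshold of 0.05. SE is limma's moderated one. The lowest 2-sided p of an exact permutation test is 0.333 in this design, and the number of arrays limits the precision. Where a whole group lay below the 40th percentile, the fold against that level is given as at least that large. The fit was tested on simulated data with independent errors and no effect of day. That test checks the code and cannot speak to effects of day, operator or project. Symbols, lists and role groups were chosen with earlier results of these data known. All members were named, with every array's value for the 12 largest falls, for member probe sets that disagree with the one of highest mean and for those below the level. The alternatives were each array left out, other filters, 2 other normalizations, a variance trend, the mean of a gene's probe sets and the processing day as a random block. One listed pathway gene is not reported here.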

Additional observations from a re-analysis of the deposited data

How the results depend on the processing

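Under the filters at the 60th percentile, on the mean of all arrays or none, with arrays centred on their medians, quantile normalization again, a variance trend or the mean of a gene's kept probe sets, 26 to 29 of the 36 effector genes were lower and 0 higher, against 28 and 0, and no gene changed sign; at an unadjusted p under 0.05 limma gave 32 lower and 0 higher in each. Leaving out single arrays moved the counts most. Over the 4 such fits, effector genes lower ran from 5 to 30, effector probe sets lower from 8 to 46, pathway genes higher from 2 to 6 and lower from 0 to 5, and all kept probe sets higher from 152 to 2562 and lower from 116 to 2176. The low ends are those without zymosan replicate 2, or either zymosan array for pathway genes higher. The median difference ran from -1.26 to -0.90. The difference of Tor3a ran from -0.33 to 0.079, and was above 0 without unstimulated replicate 1 (limma adjusted p = 0.705). With day as a random block, 18 effector genes and 27 effector probe sets were lower, 3 pathway genes higher and 2 lower, and 741 probe sets of all kept were higher and 647 lower. That block used 1 correlation for all probe sets (0.54), since limma's own estimate needs more arrays. The correlation came from the spread of the same-day pair against that of the other pair. As no day held both groups, the block cannot separate zymosan from day. Fewer arrays leave fewer residual degrees of freedom in the fits without an array. That loss is alike in all 4 and does not set the low ends apart. Without a zymosan array the residual spread is that of the unstimulated pair, with a median SD of 0.26 over the effector genes. Without an unstimulated array it is that of the zymosan pair, with a median SD of 0.08. No paired analysis was possible because the labels give the groups no shared replicate numbers. RMA values near the filter's level limit what can be said of dim probe sets.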
